A study of Mus musculus with 6 samples.

Results

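Abundant circular RNAs (circRNAs) of the aged mouse prefrontal cortex were described in 6 libraries. The members were chosen by level: a circRNA was taken when it had a value above 0 in all 6 libraries and a mean of at least 20 SRPBM over them. SRPBM is the number of reads across the back-splice junction scaled by the mapped reads of the library. This gave 1197 circRNAs, 1.67% of the 71481 listed. Levels above this limit are therefore a description of the choice and not a result. The rule did not read the groups, but a circRNA missing from a group could not enter, and near the limit the level in a single group could decide. The mean of the CON libraries was under 20 SRPBM for 139 members and that of the PND libraries for 9, and both were at or above it for the other 1049. Each library came from 1 male wild type C57BL/6 mouse aged 18 months by the age label (the sample titles carry 17M). The PND group (postoperative neurocognitive disorder, n = 3) breathed 1.5% isoflurane for 30 min and then had an exploratory laparotomy of 30 min under the same gas, with lidocaine cream and povidone iodine on the wound for the next 3 days. The CON group (n = 3) had neither anesthesia nor surgery. By the methods of the study, mice of both groups went through fear conditioning with foot shocks and a maze before the tissue was taken, and all were deeply anesthetized with isoflurane at that time. No group had anesthesia without surgery, so these cannot be told apart.

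A circRNA forms when a downstream splice donor joins an upstream acceptor, which closes the RNA into a ring without free ends. The missing ends make it resistant to exonucleases such as RNase R, which was used here to digest linear RNA, and long-lived in cells that do not divide. CircRNAs are known to be plentiful in brain, many come from genes with synaptic roles, and a few, such as the one from Cdr1as, are known for binding many copies of a miRNA. Which of these the 1197 members are is not given, because the files pair the identifiers with no gene, position or sequence. Lists of host genes, of pathways and of cell type markers were for that reason not applied, and the cortical origin could not be checked against markers. A read across the junction is counted once whatever the size of the ring, and levels of different circRNAs are set side by side without a correction for length. Whether circRNAs differ in how readily they are recovered and called was not tested.

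The libraries did not fall into the labelled groups. Over the 1197 abundant circRNAs, CON replicate 1 correlated with PND replicates 1, 2 and 3 at a Pearson's r of 0.984, 0.982 and 0.957 on the log2 scale, but with CON replicates 2 and 3 at 0.905 each. The pair of CON replicates 2 and 3 reached 0.965 with one another and 0.884 to 0.913 with the PND libraries. These are correlations across circRNAs, which are not independent and share the read total of their library, and they are given as a description. The junction reads numbered 930306 to 1320298 per library. All 3 PND libraries held more of them than any CON library, and the number of circRNAs above 0, 28239 to 40708, was lowest in CON replicates 2 and 3. The labels name no batch, so a difference in preparation and a difference between mice cannot be told apart. Results are given with and without the CON libraries concerned.

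**Figure D1:**
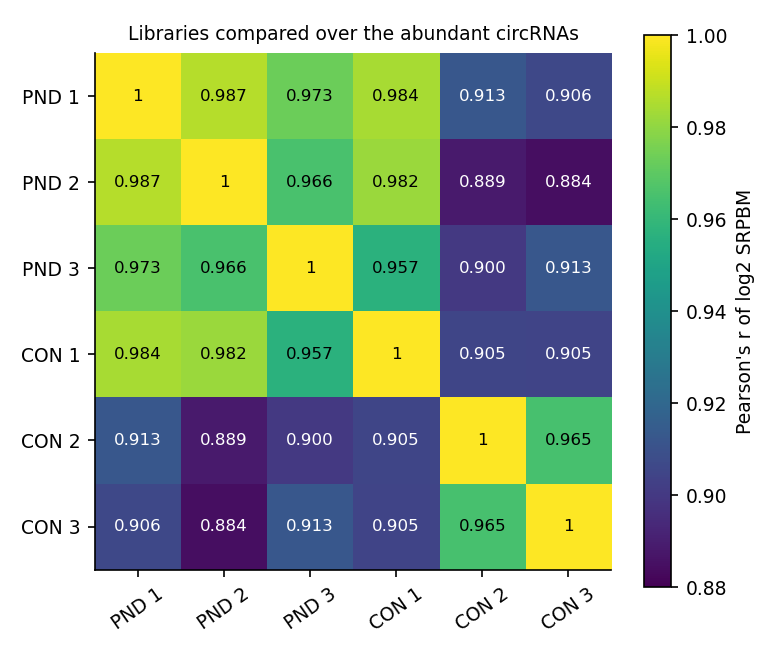
Pearson's r of log2 SRPBM between each pair of libraries over the 1197 abundant circRNAs, as a matrix of 6 libraries with the color scale at the right. CON replicate 1 sits with the PND libraries at 0.957 to 0.984, and CON replicates 2 and 3 sit with each other at 0.965.

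The abundant circRNAs made up most of the circRNA signal. They held 57.0%, 56.5% and 56.6% of the circRNA signal in PND replicates 1, 2 and 3, and 57.3%, 60.4% and 59.7% in CON replicates 1, 2 and 3. Each PND share lay below each CON share, with group means of 56.7% ± 0.25 and 59.1% ± 1.62 (SD, n = 3 each) and a difference, PND minus CON, of -2.44 percentage points. With CON replicates 2 and 3 left out, it was -0.60 points. SRPBM is relative to the mapped reads of a library and is not an amount of RNA. In this unit the members summed to 88168 ± 6460 in the PND mice and 75475 ± 4005 in the CON mice, a ratio of 1.17. The circRNAs that are not members summed to 67392 ± 5184 and 52383 ± 6398 SRPBM, a ratio of 1.29. Both sums were thus higher in the PND group, that of the less abundant circRNAs by the larger ratio.

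The signal was concentrated in few circRNAs. The most abundant 181 members held 50% of the signal of all 1197 members. By mean level, 753 members lay between 20 and 50 SRPBM, 267 between 50 and 100, 117 between 100 and 200, and 60 at 200 or above. The last 60 circRNAs alone held 17.4% of all circRNA signal, more than the 16.1% of the 753 lowest members. The reads behind a value ranged from 49 for the lowest member in any library to 20297 for the highest. Of the 1197 highest circRNAs of each library taken alone, 1116 to 1143 were members in the PND libraries and CON replicate 1 counted 1126, against 1071 and 1066 in CON replicates 2 and 3.

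The most abundant circRNA, circRNA.66028, had 2338, 2343 and 1900 SRPBM in the PND mice and 2150, 2040 and 2064 SRPBM in the CON mice. It stood alone, at 2.53 times the mean of the next and above it in all 6 libraries, and its groups overlapped. circRNA.24524 had 832, 864 and 778 SRPBM in the PND mice and 770, 952 and 876 SRPBM in the CON mice. circRNA.90035 had 827, 871 and 755 SRPBM against 735, 916 and 913 SRPBM. These circRNAs followed the same course from library to library, with the highest values in CON replicates 2 and 3 and the lowest in CON replicate 1, and their order to each other held in 4 of 6 libraries, which is no more than their spread. circRNA.77576 had 829, 939 and 753 SRPBM in the PND mice and 773, 625 and 712 SRPBM in the CON mice. It lay above circRNA.90035 in 3 libraries and below it in the other 3.

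The next members had the lower mean in the CON mice. circRNA.5827 had 733, 799 and 690 SRPBM in the PND mice and 706, 641 and 593 SRPBM in the CON mice. circRNA.40256 had 759, 799 and 637 SRPBM against 715, 548 and 539 SRPBM, and here CON replicate 1 lay within the PND range. circRNA.24122 had 636, 733 and 651 SRPBM against 585, 568 and 550 SRPBM, so that its groups did not overlap. circRNA.62176 had 632, 739 and 615 SRPBM against 635, 551 and 501 SRPBM, again with CON replicate 1 within the PND range. circRNA.116658 had 664, 687 and 534 SRPBM against 582, 610 and 517 SRPBM, with overlap. circRNA.112970 had 619, 703 and 616 SRPBM against 520, 498 and 483 SRPBM, without overlap. From circRNA.5827 down to circRNA.112970, each circRNA lay above the next in 3 or 4 of the 6 libraries, so that the order within this stretch is not fixed by the data. The step from circRNA.77576 to circRNA.5827 held in 5 libraries.

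**Figure D2:**
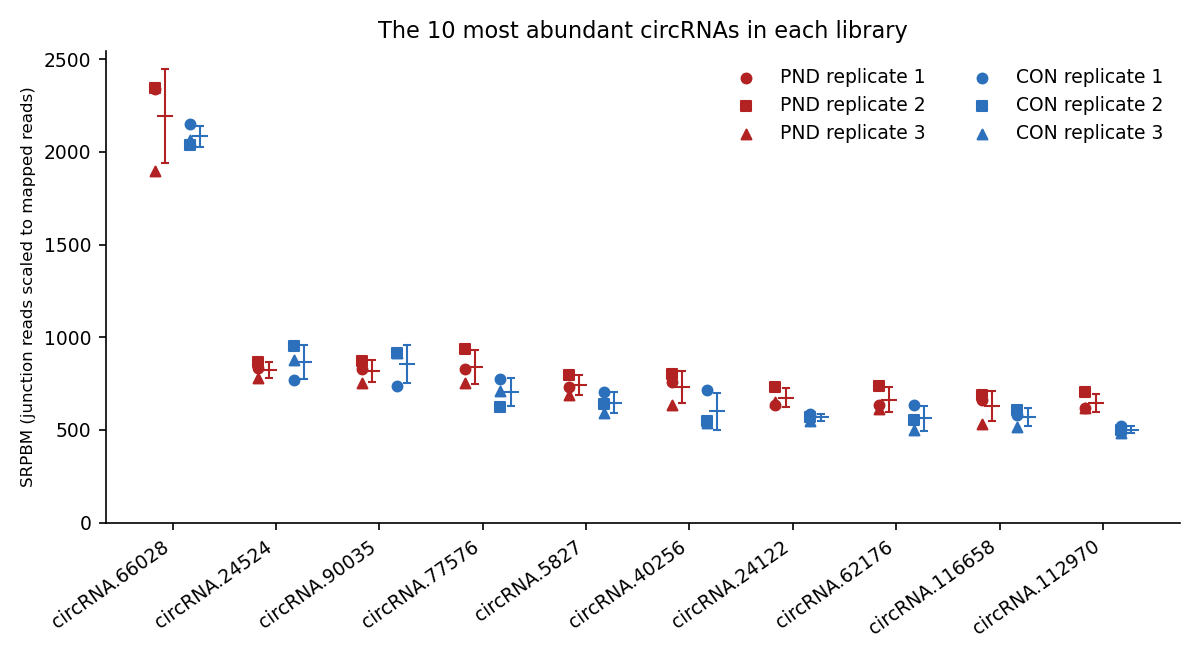
SRPBM of the 10 most abundant circRNAs (vertical axis from 0) in the 3 PND libraries in red and the 3 CON libraries in blue, with a symbol for each replicate number and bars for the mean ± SD. circRNA.66028 lies between 1900 and 2343 SRPBM, and the next 9 lie between 483 and 952 SRPBM.

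None of these 10 passed the comparison of the groups. The comparison used limma on log2(SRPBM + 0.256) over the 33140 circRNAs detected in 3 or more of the libraries, with Benjamini-Hochberg adjustment over all of them, and log2 fold changes are PND minus CON. For the 10 circRNAs the log2 fold changes ran from -0.07 for circRNA.24524 to 0.37 for circRNA.112970 (SE 0.16 for each of these, with adjusted p of 0.877 and 0.321 by limma). circRNA.66028 had a log2 fold change of 0.07 with a 95% interval of -0.31 to 0.44, that is, well inside a 2-fold change in either direction. With libraries brought to an equal circRNA total, circRNA.112970 had a log2 fold change of 0.08, circRNA.40256 had 0.01, and the other 8 lay below 0.

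Differences between the groups were next sought over all 1197 members, the question of the study design. No member passed an adjusted p of 0.05, whether higher in the PND group (0.00302% of all tested circRNAs, which is 1 circRNA) or lower (0% of all tested). The smallest limma adjusted p among the members was 0.276. This 0 depended on which circRNAs were tested: with no filter on detection 118 members passed, all higher in the PND group (9.86% against 0.627% of all tested), and with only circRNAs above 0 in all 6 libraries tested 39 passed, all higher (3.26% against 0.714%). With the replicate number as a block, although the labels pair no mice by it, 49 passed, all higher (4.09% against 0.489%). With limma voom on the junction reads, the other tool run on all 6 libraries, the count was 0 among the members and 0 among all 33140 tested circRNAs. At an unadjusted p under 0.05, 359 members were higher in the PND group, or 30.0% of them against 12.9% of all tested circRNAs, and 9 were lower, or 0.75% against 0.667%. These shares are descriptions that the choice of members could favor, since 139 members had a CON mean under 20 SRPBM and 9 a PND mean under it. How many of the 359 were among the 139 was not counted. The SE of the members was also smaller, with a median of 0.18 against 0.56 over all tested. A screening rule was also applied after the one in the study, whose methods name edgeR for the p and also limma for finding differential circRNAs. Here it was an unadjusted limma p under 0.05 with a ratio of group means above 2. The shares of members and of all tested circRNAs higher in the PND group then stood in the other order. That rule took 23 members as higher in the PND group (1.92% against 8.93% of all tested) and 0 as lower (0.552% of all tested). Of the 23, 16 had a CON mean under 20 SRPBM, so that the PND group carried them over the limit of the set. The ratio of group means of the members ran from 0.64 to 2.63.

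The bounds on the change were narrower for the members than for all tested circRNAs. The median SE of the log2 fold change was 0.18 over the members and 0.56 over all tested circRNAs. For 1001 members, or 83.6%, the unadjusted 95% interval of the log2 fold change lay wholly between -1 and 1, which was the case for 14.4% of all tested circRNAs. By level, it was 80.3% of members between 20 and 50 SRPBM, 87.3% and 90.6% in the next classes, and 57 of the 60 members at 200 SRPBM or above. For most abundant circRNAs the data thus bounded the change to less than 2-fold in either direction, and smaller changes remained possible.

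Groups that did not overlap were mostly higher in the PND group on the deposited scale. Members that entered through their PND level were not set apart in the counts that follow. All PND libraries lay above all CON libraries for 339 members, 28.3% against 15.4% of all tested circRNAs. They lay below them for 13 members, 1.09% against 1.77% of all tested. This split depended on the scale. With libraries brought to an equal circRNA total, 94 members were higher without overlap (7.85% against 9.64% of all tested) and 156 lower (13.0% against 4.48%). At an unadjusted p under 0.05 there were 97 higher (8.10% against 7.39%) and 125 lower (10.4% against 2.25%). Among all tested circRNAs the higher ones thus stayed in the majority, and among the members they did not. The median log2 fold change of the members was 0.24 on the deposited scale, beside 0.36 for all tested circRNAs, and 83.2% of members lay above 0. At the same total signal it was -0.04, beside 0.17 for all tested circRNAs, and 44.6% of members lay above 0. Centred on the circRNAs present in all 6 libraries it was -0.09, beside 0.13. No direction can thus be given for the abundant circRNAs as a set apart from the scale. On each of these scales the median of the members lay below that of all tested circRNAs, but with CON replicates 2 and 3 left out on the deposited scale it lay above, at 0.13 beside 0.08. In a tissue extract, fewer cells of a type and less RNA per cell cannot be told apart.

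**Figure D3:**
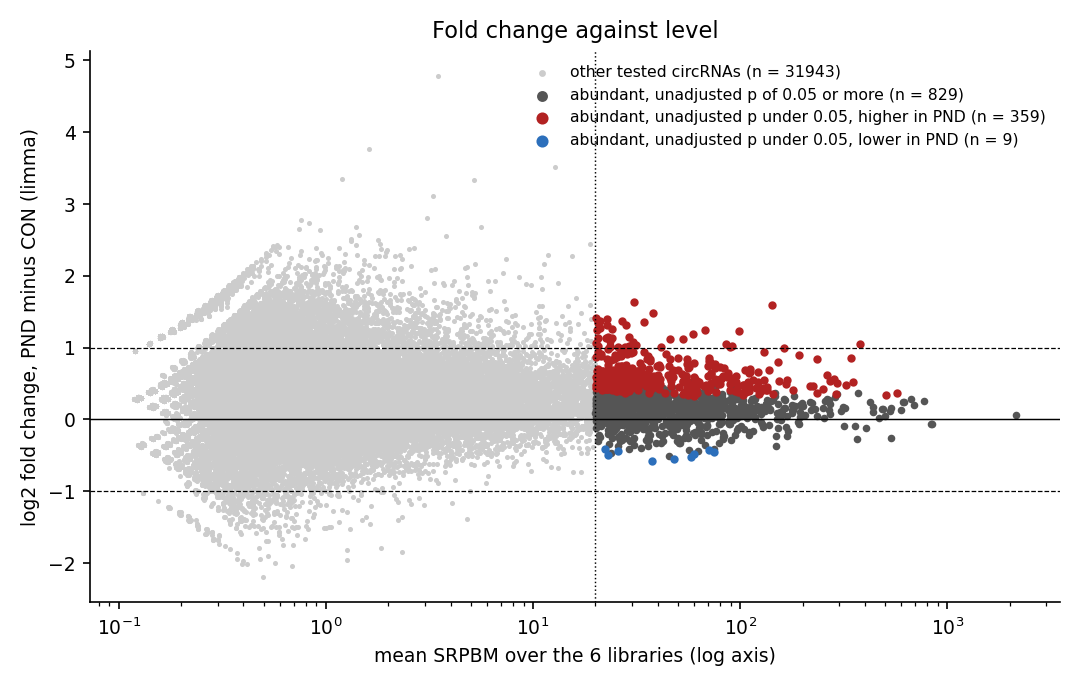
Log2 fold change (PND minus CON, limma) against the mean SRPBM over the 6 libraries (log axis) for the 33140 tested circRNAs, with the abundant circRNAs to the right of the dotted line at 20 and dashed lines at a 2-fold change. Members of unadjusted p under 0.05 are in red (359 higher in PND) and blue (9 lower), and the members spread from -0.58 to 1.64.

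The share of members at an unadjusted p under 0.05 varied little with level on the deposited scale. Members higher in the PND group made up 31.1%, 28.1%, 29.1% and 26.7% of the 4 level classes from the lowest to the highest. Of all tested circRNAs it was 12.9%. The median log2 fold change was 0.27, 0.20, 0.19 and 0.21 in these classes. At the same total signal it was -0.0075, -0.081, -0.094 and -0.078, and 49%, 39%, 34% and 35% of members lay above 0. On that scale the share above 0 was thus highest in the lowest class. The calls that follow are on the deposited scale. The screening rule took 18, 4, 1 and 0 members as higher in classes of 753, 267, 117 and 60. These were 2.39%, 1.50%, 0.85% and 0% of the classes, beside 8.93% of all tested circRNAs. The 9 members with lower values at the unadjusted p were 5, 4, 0 and 0 by class. These were 0.66%, 1.50%, 0% and 0% of the classes, beside 0.667% of all tested circRNAs. So few members show no course with level.

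The count of 0 also depended on which libraries entered. Without CON replicate 1, 187 members had a limma adjusted p under 0.05, with 181 higher (15.1% against 2.45% of all tested) and 6 lower in PND (0.50% against 0.03%). Without CON replicate 2 or without CON replicate 3 there were 0, beside 0.00639% and 0.0032% of all tested circRNAs that were higher. With CON replicates 2 and 3 both left out, so that CON replicate 1 stood alone and was assumed to vary like the PND libraries, there were also 0. At an unadjusted p under 0.05 there were then 71 higher (5.93% against 7.46% of all tested) and 0 lower (0.589% of all tested), and the screening rule took 0 as higher (6.51% of all tested). Leaving out a PND library also raised the count, to 69, 28 and 97 without PND replicates 1, 2 and 3, all higher in PND. These were 5.76%, 2.34% and 8.10% of the members, against 0.884%, 0.26% and 1.2% of all tested circRNAs. Of these, 65, 27 and 91 were among the 187 found without CON replicate 1.

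The order of the libraries was then read circRNA by circRNA. On the deposited scale PND replicate 2 was the highest library for 686 members (57.3%), and CON replicate 2 or 3 was the lowest for 449 and 356 (37.5% and 29.7%). At the same total signal no library led in this way, and the highest library was CON replicate 2 for 305 members, CON replicate 3 for 272 and each of the others for 88 to 184. CON replicates 2 and 3 still moved together. At the same total signal they were the 2 lowest libraries for 282 members and the 2 highest for 350, whereas the other 14 pairs of libraries were the 2 lowest for 21 to 148 members and the 2 highest for 22 to 121. CON replicate 1 lay nearer on the log2 scale to the mean of the PND libraries than to the mean of CON replicates 2 and 3 for 889 members (74.3%) at the same total signal and for 840 (70.2%) on the deposited scale.

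**Figure D4:**
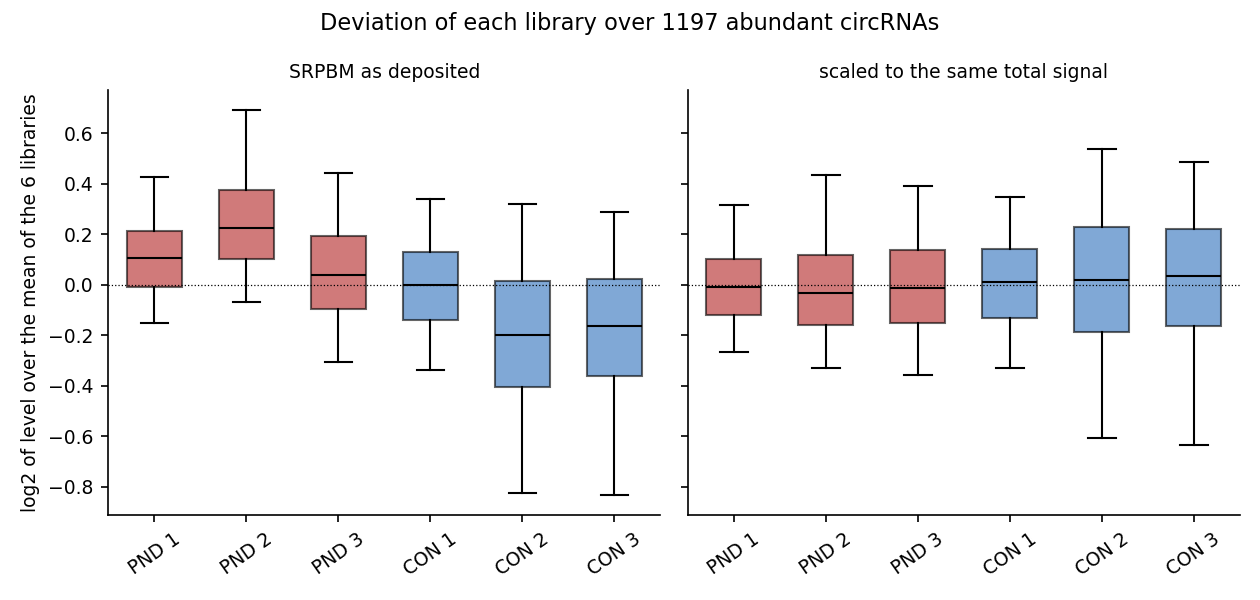
Log2 of the level of each abundant circRNA over its mean in the 6 libraries, by library (red PND, blue CON), as deposited at the left and scaled to the same total circRNA signal at the right, where boxes span the quartiles of 1197 circRNAs and whiskers the 5th and 95th percentiles. As deposited the medians run from -0.20 in CON replicate 2 to 0.22 in PND replicate 2, and CON replicates 2 and 3 keep the widest boxes on both scales.

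Levels that differed by more than 1.5-fold between libraries were counted at the same total signal. PND replicate 1 and CON replicate 1, of different groups, differed in this way for 9 members (0.75%), and PND replicates 1 and 2 for 7 (0.58%). CON replicates 1 and 2 differed for 257 members (21.5%), and CON replicates 1 and 3 for 244 (20.4%). CON replicate 1 thus differed from the other mice of its own group for more circRNAs than from PND replicate 1. CON replicates 2 and 3 differed from each other for 76 members (6.35%).

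The spread between replicates was larger in the CON group. The coefficient of variation (CV, SD over mean) had a median of 11.1% in the PND mice and 16.2% in the CON mice over the members, and it was larger in the CON group for 835 of the 1197. At the same total signal the medians were 8.24% and 15.6%, and the CON value was larger for 914. Counting of reads alone gives a median CV of 5.42% and 6.27%. For the 60 circRNAs at 200 SRPBM or above, counting error was 1.88% and 2.17%, and the spread at the same total signal was 4.43% in the PND mice and 10.8% in the CON mice. The ratio of the highest to the lowest library was above 2 for 258 members (21.6%) and above 4 for 28. In each of those 28, CON replicates 2 and 3 were the 2 lowest libraries.

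The circRNAs with the smallest p and no overlap between groups were then taken in each direction. circRNA.803 had 28.5, 33.9 and 23.9 SRPBM in the PND group and 17.8, 9.12 and 7.09 SRPBM in the CON group, from 56 to 261 reads per library. CON replicates 2 and 3 were far below CON replicate 1, which lay under the lowest PND library. Its log2 fold change was 1.42 (SE 0.28 and adjusted p 0.276 by limma). Without CON replicate 1 the log2 fold change was 1.79 (limma adjusted p of 0.00604), and with CON replicate 1 alone it was 0.67 (limma adjusted p of 0.597). circRNA.803 had a mean of 20.03 SRPBM over the 6 libraries, from 28.7 ± 4.99 SRPBM in the PND mice and 11.3 ± 5.67 SRPBM in the CON mice (SD, n = 3 each). It entered the set through its PND level alone, so its difference is a description that the choice of members favored.

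circRNA.128967 was more abundant, and its CON libraries did not part. It had 195, 246 and 317 SRPBM in the PND mice and 149, 116 and 134 SRPBM in the CON mice, from 891 to 2743 reads per library. The CON values lay close together and the PND values apart, with PND replicate 3 highest. Its log2 fold change was 0.90 (SE 0.19 and adjusted p 0.276 by limma). It was 0.99 without CON replicate 1 (limma adjusted p of 0.0342), 0.73 with CON replicate 1 alone (limma adjusted p of 0.592) and 0.62 with libraries at an equal total (limma adjusted p of 0.414). The limma adjusted p of circRNA.128967 was 0.0228 with only circRNAs above 0 in all 6 libraries tested and 0.0226 with the replicate block.

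Of the members with lower values in the PND group, the leading ones had smaller differences than these on the deposited scale, but at an equal total their differences exceeded that of circRNA.128967. circRNA.33832 had 51.3, 54.6 and 43.3 SRPBM in the PND group and 54.8, 81.0 and 75.2 SRPBM in the CON group. CON replicate 1 lay just above the highest PND library, and CON replicates 2 and 3 lay well above. Its log2 fold change was -0.49 (SE 0.18 and adjusted p 0.288 by limma), -0.77 with libraries at an equal total and -0.15 with CON replicate 1 alone. circRNA.69689 had 20.8, 24.8 and 20.1 SRPBM against 27.5, 29.0 and 32.5 SRPBM. Here all CON libraries lay near each other. Its log2 fold change was -0.44 (SE 0.17 and adjusted p 0.298 by limma), -0.72 with libraries at an equal total and -0.33 with CON replicate 1 alone.

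The members with the largest spread within a group were then taken. circRNA.984 had the largest CV in the PND group, 42.4%, with 56.2, 52.1 and 107 SRPBM in the PND group and 36.8, 29.2 and 49.9 SRPBM in the CON group. PND replicate 3 had 925 reads of it, and the other PND libraries had 488 and 402. circRNA.110843 had the largest CV in the CON group, 84.7%, with 23.4, 34.2 and 26.0 SRPBM in the PND group and 27.7, 6.38 and 7.98 SRPBM in the CON group. CON replicate 1 lay inside the PND range, and CON replicates 2 and 3 had 49 and 63 reads. Its log2 fold change of 1.27 (SE 0.40 and adjusted p 0.276 by limma) became -0.01 with CON replicate 1 alone and 1.91 without it (limma adjusted p of 0.00581). The CON mean of circRNA.110843 was also under 20 SRPBM.

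At the lower limit of the set, circRNA.113278 was just inside at a mean of 20.01 SRPBM, with 16.3 to 24.3 SRPBM over the 6 libraries. circRNA.10399 was just outside at 19.99 SRPBM, with 12.2 SRPBM in its lowest library, and circRNA.20627 at 19.97 SRPBM, with 13.7 to 24.0 SRPBM. These do not differ in level beyond the spread of their own libraries, so the limit marks no break in the data.

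Presence in every library removed only 3 circRNAs that had the required mean, and these were either high or at 0. circRNA.60150 had 467 SRPBM in PND replicate 3, from 4046 reads, and 418 SRPBM in CON replicate 1, from 3038 reads, and was at 0 in the other 4 libraries. By its mean of 148 SRPBM it ranks 100th of all listed circRNAs. Set against a floor of 3 reads per library, which allows up to 0.391 SRPBM, it was at least 1071-fold higher where it was found. That floor covers counting error only, and whether the calling of junctions gave the values of 0 was not tested. circRNA.129510 had 114 SRPBM in PND replicate 1 and 60.4 SRPBM in CON replicate 2, from 988 and 464 reads, and was at 0 in the other 4. circRNA.90042 had 88.5 and 82.4 SRPBM in PND replicates 1 and 3 and 64.3 and 72.2 SRPBM in CON replicates 2 and 3, and was at 0 in PND replicate 2 and CON replicate 1. In none of these did presence follow the labelled group. Among all 2436 listed circRNAs with at least 100 reads in some library, 21 (0.86%) were at 0 in another, a count made after the values were seen.

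**Figure D5:**
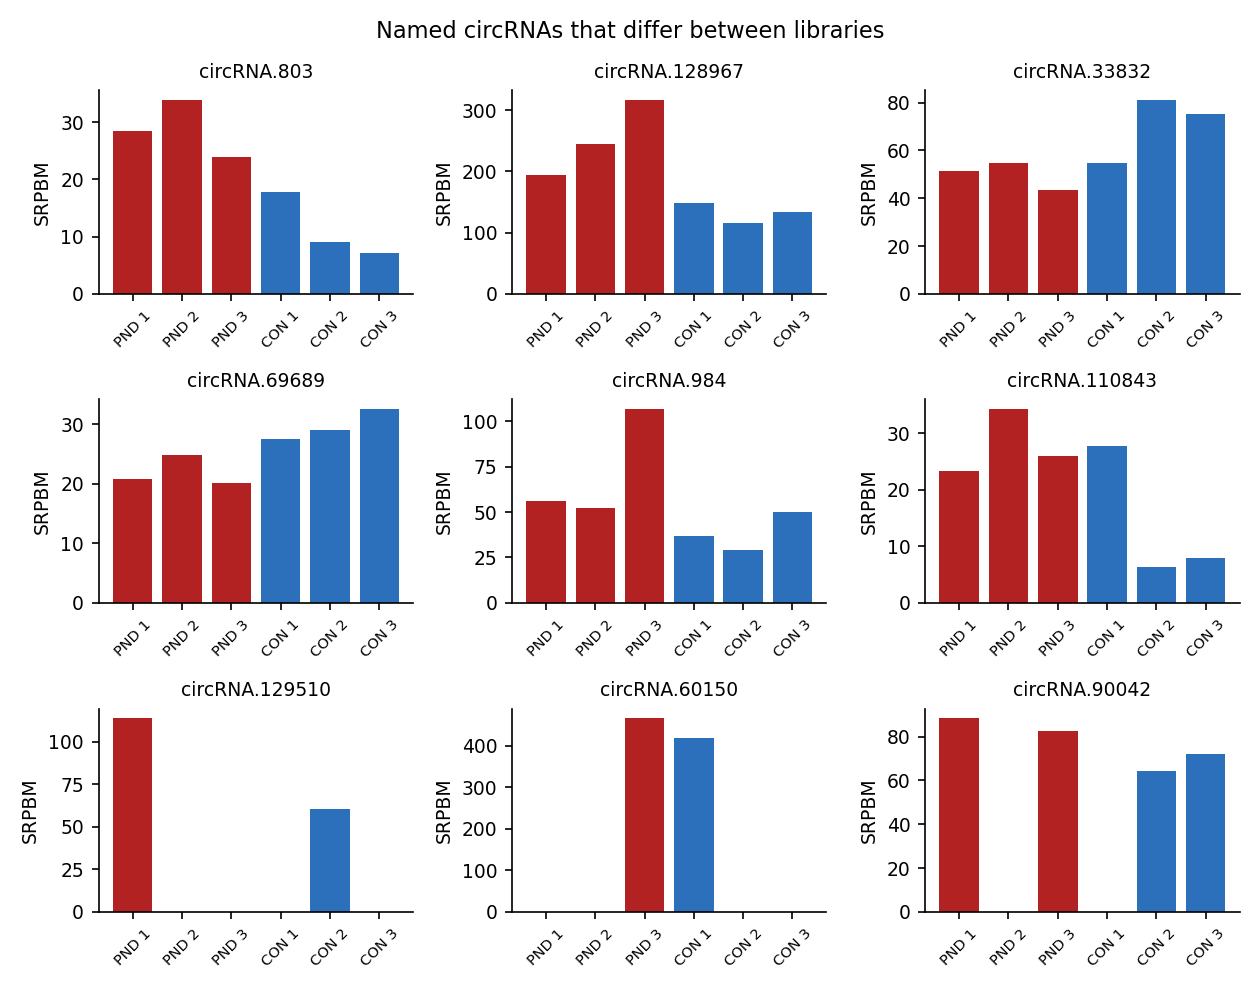
SRPBM by library (bars from 0, red PND, blue CON, each panel with its own vertical scale) of 6 named abundant circRNAs and, in the bottom row, the 3 circRNAs that were abundant by mean but at 0 in some library. circRNA.110843 is at 6.38 and 7.98 SRPBM in CON replicates 2 and 3 and at 23.4 to 34.2 elsewhere, whereas circRNA.60150 is present in PND replicate 3 and CON replicate 1 only.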

How the data were processed

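Prefrontal cortex RNA of 3 PND and 3 CON mice was sequenced by the authors after removal of rRNA and RNase R digestion. By their methods, reads were filtered with Seqtk and mapped with BWA-MEM, junctions were called with CIRI, and circRNAs were merged by location. Tool versions are not given in the sources used here. The submitters' processing notes name Bowtie 0.12.2 and builds mm8 and mm9, and no coordinates were used. The deposited signal is SRPBM, 1 file per library. All values proved whole multiples of 1 step per file (100% within 0.01 of a step), the smallest being 2 steps, and junction reads were taken as the number of steps. Linear reads left after digestion enter the read total behind the scale. Floors and counting CVs cover counting error only, since reads carry no molecular identifiers, whereas limma intervals cover the spread between libraries.

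The files were joined by identifier. limma 3.58.1 (R 4.3.3, mean-variance trend, group as the only term) was fitted on log2(SRPBM + 0.256), where 0.256 is the median over libraries of the smallest positive value, for circRNAs above 0 in at least 3 of 6 libraries. All 1197 members passed this filter. Calls used an adjusted p (Benjamini-Hochberg over all 33140) under 0.05. The code was tested on simulated reads. Named are the 10 highest members by mean, the 2 higher and 2 lower in PND of smallest p without overlap, the circRNAs next to the limit, the largest CV in each group, and circRNAs of sufficient mean at 0 in a library. The members, lists and tests were chosen with earlier results of these data known. The labels say nothing of separate preparation days. The p-values measure the spread between these libraries, in which mouse and preparation cannot be told apart. Alternatives were other pseudocounts, scalings and filters, limma voom, the replicate number as a block, other level limits and leaving out libraries. Centring, and leaving out CON replicates 2 and 3 together, were chosen after seeing the data. A count model and trimmed-mean scaling were planned but not run. No library held the same values as another.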

Additional observations from a re-analysis of the deposited data

How the results depend on the processing

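The number of members with an adjusted p under 0.05, 0 over all 6 libraries, was 118 with every listed circRNA tested, 39 with circRNAs above 0 in all 6 libraries tested, and 49 with the replicate number as a block, each of them higher in PND. Libraries with the same replicate number showed no common deviation (r of -0.01, -0.03 and 0.05), so the block rests on a shared number only. The number was 0 to 187 with a library left out. With the other filters and with the block, log2 fold changes stayed as reported and the SE changed. For circRNA.803 the log2 fold change was 1.42 throughout. Its SE was 0.28 as reported, and 0.23, 0.26 and 0.23 with no filter, with presence in all 6 and with the block. For circRNA.69689 it rose from 0.17 to 0.21, 0.19 and 0.20. The cause of these changes was not tested. Screening calls, 23 as reported, were 6 at the same total signal, 4 after centring, 0 without CON replicates 2 and 3, 61 and 5 with a lower limit of 10 and 50 SRPBM (2260 and 444 members), and 6 to 98 with a library left out. Unadjusted calls, 368 as reported, were 222, 234, 71, 666 and 129 in the same order, and 187 to 567. The 4 screening calls after centring were 3 higher and 1 lower in PND. The 6 at the same total signal were all higher. Over all 33140 tested circRNAs the rule took 1993 as higher and 344 as lower at the same total signal. After centring it took 1859 and 403. Unadjusted calls after centring were 83 higher and 151 lower among the members, against 2240 and 887 of all tested. Members without overlap, 352 as reported, were 642 without CON replicates 2 and 3, 654 and 122 with the other limits, and 392 to 762 with a library left out. Over all tested circRNAs, 5087 were higher and 586 lower in PND without overlap (33140 tested). Without CON replicates 2 and 3 these were 9898 and 5449 (29010 tested), against 578 and 64 of the 1197 members. Without CON replicate 1 they were 9945 and 1596 (30039 tested), against 652 and 110. Groups of fewer libraries overlap less often, so the rise from 352 with libraries left out is no measure of the members. Intervals inside 2-fold were 1773 (78.5%) and 396 (89.2%) with the other limits, and 897 to 1023 with a library left out. The median log2 fold change reversed to -0.040 at the same total signal and -0.091 after centring, was 0.13 without CON replicates 2 and 3, and 0.19 to 0.30 with a library left out. The difference in the share of signal was -0.60 points without CON replicates 2 and 3 and -3.35 to -1.82 with 1 left out.

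Over 255 comparisons for 17 named members, 23 passed the threshold where the reported fit did not. In 21 the sign changed, each at an adjusted p over 0.7. At the same total signal and after centring, the log2 fold changes were -0.22 and -0.27 for circRNA.66028, -0.027 and -0.079 for circRNA.77576, -0.087 and -0.14 for circRNA.5827, -0.040 and -0.092 for circRNA.24122, -0.046 and -0.097 for circRNA.62176, -0.15 and -0.20 for circRNA.116658, and -0.19 and -0.24 for circRNA.113278. For circRNA.40256 it was -0.045 after centring. Without CON replicates 2 and 3 it was 0.10 for circRNA.24524, 0.15 for circRNA.90035 and -0.0094 for circRNA.110843. With a library left out, circRNA.113278 ranged from -0.026 to 0.21 and circRNA.24524 from -0.15 to 0.0050. circRNA.803 and circRNA.128967 kept their direction in all 15 settings. Both were chosen from these same libraries for a small p without overlap, so the kept direction is no independent support. circRNA.803 also entered the set through its PND level alone. Their lowest limma adjusted p, 1.34e-06 and 1.92e-07, came from the fit with no filter, against 0.276 for each in the reported fit. The planned negative binomial count model and trimmed-mean scaling were not run. Every member had at least 49 reads in each library, and each group had 3 mice.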
